A study of Rattus norvegicus with 288 samples.

Results

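The cytosolic ribosome is built from a large and a small subunit, and each of its proteins is encoded by a gene of its own whose symbol begins with Rpl or Rps. These genes are transcribed at a high rate in nearly every cell. Their mRNAs begin with a run of pyrimidines, the 5′ terminal oligopyrimidine (TOP) element, through which the kinase mTOR sets their translation. Free Rpl5 and Rpl11 bind Mdm2, the ligase that degrades p53, when ribosome assembly is disturbed. The genes were chosen by symbol: Rpl or Rps followed by a number and at most 1 letter a, x or y, plus Rpsa and the stalk genes Rplp0, Rplp1 and Rplp2. They were found for 42 of 14218 genes, 29 of the large and 13 of the small subunit, on 48 probe sets with 1 symbol. A further 33 probe sets carry such a symbol among several, and 27 symbols, Rplp1 among them, occur only there and were not read. Rplp2 was not found. These genes have many near-identical processed copies in mammalian genomes, so a probe set can also read a copy.

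The study took the heart, the kidney and the liver of each of 96 rats, which were male Sprague-Dawley animals of 8 weeks with a cannula in the femoral vein. Each rat received, over 30 min, oxaliplatin at 15 mg/kg, a platinum drug that crosslinks DNA, or its vehicle D5W (dextrose in water). An oral dose followed, of the receptor kinase inhibitor sunitinib at 5 mg/kg or its vehicle water, or of the kinase inhibitor sorafenib at 25 mg/kg or the vehicle F68/PG/PEG400 (Pluronic F68 with propylene glycol and polyethylene glycol), for short F68. Rats were killed at 1, 6 or 24 h after dosing, which gave 72 groups of 4 rats over the 3 tissues. Water and sunitinib rats were dosed on one day and F68 and sorafenib rats on another, and the 24 h arrays carry another array code than those of 1 and 6 h.

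The arrays kept numbered 96 in heart, 95 in kidney and 95 in liver, and 11317, 12310 and 11619 genes were tested. On the 2 arrays left out the tubule gene Umod contradicted the label, with 14.36 log2 on the one labelled liver and 6.40 on the one labelled kidney. On the kept arrays the heart markers had a median of 14.4 in heart, the kidney markers 13.1 in kidney and the liver markers 14.7 in liver, with the lists of other tissues at medians of 5.40 to 6.17 and at most 9.19 on any array. On kidney arrays the heart markers reached 8.02 and the liver markers 9.19. The kidney group at 1 h of oxaliplatin then sunitinib was kept whole. Its control probe sets BioB had a low of 4.69 against a group median of 8.78. The paper names this group as a possible outlier to be read with caution. The median over the ribosomal protein genes of an array ran from 12.9 to 13.2 on heart arrays, 13.4 to 13.7 on kidney arrays and 13.0 to 13.4 on liver arrays, and its SD within groups was 0.040, 0.046 and 0.051.

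The tests took in 40 of the 42 genes in heart and in liver and 41 in kidney. A total of 38 were bright in every tissue, with tissue means from 11.9 to 14.4 log2. The other 4 were dim: Rpl28, tested only in kidney, Rpl30, tested in none, Rpl39 and Rps13. In these whole-tissue samples fewer cells of a type and less RNA per cell cannot be told apart.

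Start sequences are printed for 13 genes that recur in the results, some with the shared element and some without it. They were read from RefSeq promoter windows of the rat assembly GRCr8, which hold 37 of the 42 genes, with 15 bases before and 15 from the annotated start on the transcribed strand. Capitals mark the pyrimidine run (C or T) that begins at the start.
Rpl3, chr7:113507976-113508005, minus strand: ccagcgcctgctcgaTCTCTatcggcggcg
Rpl12, chr3:36661925-36661954, plus strand: ggagcaacatccgtcTTTTCggctttcggt
Rplp0, chr12:46718376-46718405, minus strand: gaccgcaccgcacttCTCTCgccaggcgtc
Rpl19, chr10:83519049-83519078, plus strand: cgcgaccagcaagctCTTTCCTTTCgctgc
Rpl27a, chr1:172974558-172974587, plus strand: cgagacttggtgggcTCCTCCCTCTTTCTT
Rpl35a, chr11:81235007-81235036, minus strand: gcgggtcttgccttcCTCTTTCCgccatct
Rps15, chr7:10068101-10068130, minus strand: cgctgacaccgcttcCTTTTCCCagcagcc
Rpsa, chr8:128728864-128728893, plus strand: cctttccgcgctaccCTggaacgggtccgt
Rps28, chr7:15311319-15311348, minus strand: gcatcccctgctcacgtgactcctctccgc
Rpl4, chr8:73566462-73566491, plus strand: taagttcttccttttCCTgtgggagcagcc
Rpl6, chr12:41011676-41011705, minus strand: tatttttacatcactagatggcgggtgaaa
Rpl13a, chr1:104748899-104748928, minus strand: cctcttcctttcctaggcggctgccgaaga
Rpl18, chr1:105325255-105325284, plus strand: tctggacctggtctagcaggaggcgccatc
A run of at least 5 pyrimidines began at the annotated start of 18 genes, which is 48.6% of the 37, against 4.75% of 33469 promoters in the table. Within 10 bases of the start, 75.7% held such a run, against 38.7% of all promoters. The longest run, 19 bases, goes past the end of the stretch printed for Rpl27a. Of the 13 printed, 7 begin with a run of that length. Rpsa, Rps28, Rpl4, Rpl6, Rpl13a and Rpl18 show none at the annotated start, which says only that these letters are not at that position.

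Oxaliplatin was compared with D5W at each time, 8 rats against 8, to see whether the platinum drug moved these genes. The differences were small in every tissue. Over the 38 bright genes, 3 tissues and 3 times, 342 differences lay between -0.20 (0.873-fold, Rpl3 in kidney at 6 h) and 0.16 log2 (1.12-fold, Rpsa in kidney at 24 h), 0 were over 0.2 in size and 15 were called. The standard error of a difference had a median of 0.032. With the dim genes that were tested, 17 of 363 differences were called and 2 were over 0.2, up to 0.25. The shares of all genes called stand with each comparison below. For fits with another scaling, normalization or a covariate, calls over all genes were not counted. The medians over the tested genes at 1, 6 and 24 h were -0.039, 0.028 and -0.019 in heart, 0.013, 0.0094 and 0.040 in kidney and -0.031, 0.052 and -0.052 in liver. By sign alone, 0 heart genes were above 0 and 40 below it at 1 h, 36 above and 4 below at 6 h, and 11 above and 29 below at 24 h. In kidney the counts were 29 and 12, 24 and 17, and 34 and 7, and in liver 5 and 35, 37 and 3, and 6 and 34. Signs of genes on the same arrays are not independent, since the genes varied together within groups as described at the end. Over all genes tested the medians were -0.026, 0.0062 and 0.034 in heart, -0.016, 0.011 and 0.0088 in kidney and -0.0088, 0.0089 and -0.016 in liver.

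**Figure D1:**
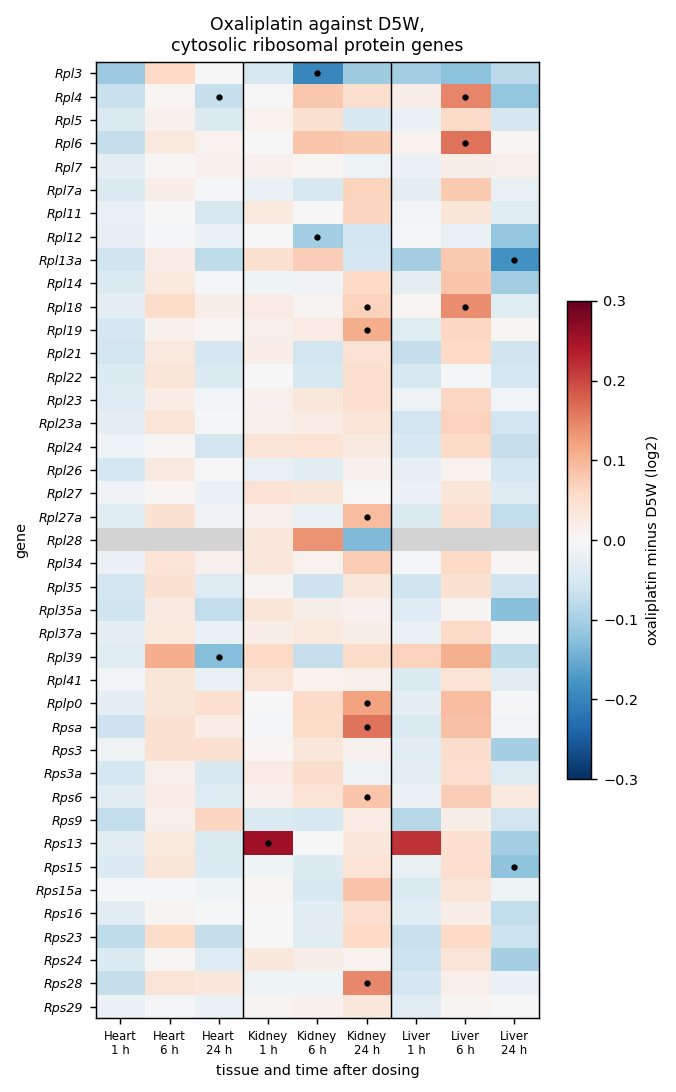
Oxaliplatin minus D5W (log2, colour) for each ribosomal protein gene (rows) in each tissue and time (columns), 8 rats against 8, with a dot where the adjusted p was under 0.05 and grey where the gene was not tested. Rpl3 in kidney at 6 h is the lowest bright gene at -0.20, and 7 dots stand in kidney at 24 h.

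In kidney at 6 h, 2 of the 41 genes were lower, against 7.88% of all genes tested, and 0 were higher by limma, against 12.7%, with 2 higher at an unadjusted p under 0.05. The larger of the 2 was Rpl3, a protein of the large subunit near the peptidyl transferase centre. It ranged from 13.23 to 13.47 (median 13.32) after oxaliplatin and from 13.44 to 13.62 (median 13.56) after D5W, so that the groups overlap narrowly. The difference was -0.20 ± 0.037 log2 (adjusted p = 3.26e-05). Rpl12, of the stalk base, ranged from 12.93 to 13.20 and from 13.10 to 13.28, a difference of -0.10 ± 0.032 (adjusted p = 0.0135).

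The lower Rpl3 at 6 h was seen under each oral dose, in separate rats. With water the values were 13.32, 13.33, 13.38 and 13.47 after oxaliplatin and 13.48, 13.50, 13.56 and 13.56 after D5W, a difference of -0.15 ± 0.053 (adjusted p = 0.0479). With sorafenib they were 13.31, 13.35, 13.42 and 13.44 against 13.54, 13.54, 13.56 and 13.59, a difference of -0.18 (adjusted p = 0.0219). Under these 2 doses every oxaliplatin rat lay below every D5W rat. With F68 they were 13.23, 13.26, 13.32 and 13.45 against 13.44, 13.56, 13.60 and 13.62, a difference of -0.24 (adjusted p = 0.00094). With sunitinib they were 13.34, 13.36, 13.39 and 13.49 against 13.47, 13.52, 13.57 and 13.64, a difference of -0.16 (adjusted p = 0.028). Under these doses the groups overlap at 1 pair of rats each. The numbers of ribosomal protein genes called lower were 1 with water (4.4% of all genes), 6 with F68 (3.63%), 1 with sunitinib (5.6%) and 1 with sorafenib (2.83%).

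**Figure D2:**
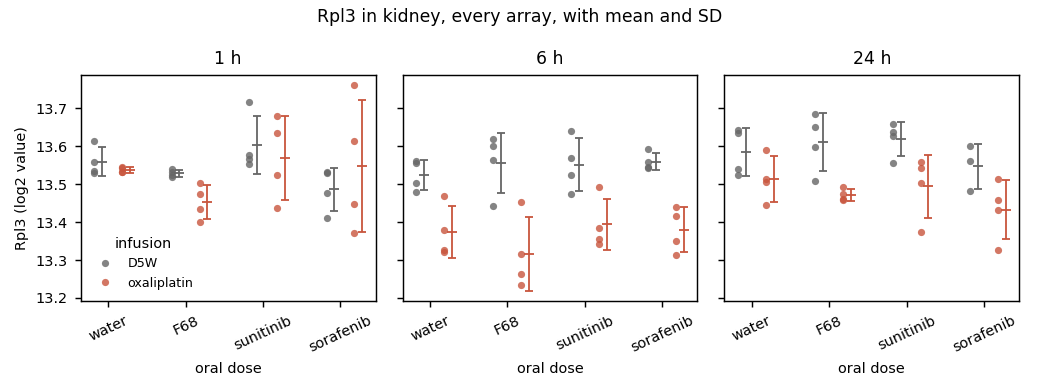
Rpl3 (log2 value) on every kidney array by oral dose and infusion at 1, 6 and 24 h, with the mean and SD of each group of 4 rats (3 for D5W then sorafenib at 24 h). At 6 h the oxaliplatin rats lie lower under each oral dose, by 0.15 to 0.24 on the log2 scale.

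At 1 h the kidney difference of Rpl3 was -0.048 (adjusted p = 0.528) and at 24 h -0.11 (adjusted p = 0.0641). In heart Rpl3 differed by -0.11, 0.060 and -0.0020 at 1, 6 and 24 h, and in liver by -0.11, -0.12 and -0.080, none called. Tested as a difference between tissues at 6 h, the effect on Rpl3 was lower in kidney than in heart by -0.26 ± 0.070 (adjusted p = 0.0142), 1 of 2 ribosomal protein genes called lower there against 2.31% of all genes. Against liver the difference was -0.072 (adjusted p = 0.724).

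In kidney at 24 h, 7 of the 41 genes (17.1%) were higher after oxaliplatin, against 5.61% of all genes tested. Lower calls numbered 0, against 269 of 12310 over all genes. Rpsa, the laminin receptor protein of the small subunit, ranged from 13.64 to 13.77 (median 13.68) after oxaliplatin and from 13.37 to 13.71 (median 13.54) after D5W, a difference of 0.16 ± 0.028 (adjusted p = 3.79e-05). Rps28 ranged from 13.19 to 13.34 and from 13.07 to 13.16, a difference of 0.14 ± 0.032 (adjusted p = 0.00152). The stalk protein Rplp0 ranged from 13.41 to 13.49 and from 13.26 to 13.39, a difference of 0.12 ± 0.027 (adjusted p = 0.00145). For Rps28, Rplp0 and Rpl19, 3 of the 41 genes, every oxaliplatin rat lay above every D5W rat. Groups without overlap were not counted over all genes. Rpl19 ranged from 14.12 to 14.26 and from 14.02 to 14.10, a difference of 0.11 ± 0.021 (adjusted p = 0.00024). Rpl27a was higher by 0.096 (adjusted p = 0.0164) and Rps6, which S6 kinase phosphorylates, by 0.083 (adjusted p = 0.0198). With array medians set equal, 4 genes were called. Within 1 oral dose, 4 rats against 4, the count was 7 with water (1.93% of all genes), 1 with F68 (0.918%), 1 with sunitinib (1.06%) and by limma 0 with sorafenib (0.146%; 5 at an unadjusted p under 0.05). In the same comparison 3 of 10 macrophage markers and 2 of 5 erythroid markers were lower and 7 of 14 proliferation genes higher, and the summed macrophage signal (linear scale, in units of 1000) was 8.90 to 13.9 after oxaliplatin and 12.1 to 17.5 after D5W. Their part in the result was not tested.

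At 1 h, 1 gene was higher in kidney, against 4.45% of all genes: the dim Rps13, a protein of the small subunit, with a median of 7.09 (highest 7.25) against 6.83 (6.72 to 7.09), a difference of 0.25 ± 0.055 (adjusted p = 0.000689). In the sorafenib rats alone Rps13 differed by -0.066, against 0.25 in the pooled comparison.

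In liver, 0 genes passed at 1 h by limma, against 3.46% of all genes, with 2 at an unadjusted p under 0.05. At 6 h, 3 of 40 were higher, against 6.72%, all of the large subunit. Rpl6 ranged from 13.35 to 13.56 after oxaliplatin and from 13.12 to 13.37 after D5W, a difference of 0.16 ± 0.039 (adjusted p = 0.00277). Rpl4 differed by 0.15 ± 0.040 (adjusted p = 0.0097) and Rpl18 by 0.14 ± 0.029 (adjusted p = 0.000492), and in each the groups overlap. In the same comparison 6 of 11 macrophage markers were lower, and their part in the result was not tested. At 24 h, 2 of 40 were lower, against 4.69% of all genes. Rpl13a, a protein known for its part in silencing inflammatory mRNAs, ranged from 12.22 to 12.69 and from 12.54 to 12.86, a difference of -0.18 ± 0.053 (adjusted p = 0.0249), and Rps15 differed by -0.12 ± 0.039 (adjusted p = 0.0478). Leaving out 1 array at a time gave 0 to 3 called genes. In the liver at 24 h 8 of 11 macrophage markers, 4 of 5 erythroid markers and 7 of 14 proliferation genes were lower as well, with summed macrophage signals of 12.0 to 18.4 against 17.6 to 27.9, and their part in the result was not tested.

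The oxaliplatin effect was then compared between times and tissues. In liver 6 of 40 genes were lower at 24 h than at 6 h, against 7.28% of all genes, led by Rpl4 at -0.26 ± 0.057 (adjusted p = 0.00189), Rpl13a at -0.26 ± 0.074 and Rpl14 at -0.19 ± 0.056. In kidney 3 genes were higher at 24 h than at 6 h, against 6.26%: Rps28 at 0.16, Rpl27a at 0.12 and Rpl7a at 0.11. Between kidney and liver at 24 h, 9 of 41 genes had a higher effect in kidney (22%), against 5.99% of all genes, led by Rpsa at 0.17, Rpl27a at 0.17 and Rpl4 at 0.16.

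In heart, 0 genes passed at 1 h by limma (1.23% of all genes; 8 at an unadjusted p under 0.05) and 0 at 6 h (0.866% of all genes; 2 at an unadjusted p under 0.05). At 24 h 2 were lower, against 4.75%, and 0 higher by limma, against 14.5% (1 higher at an unadjusted p under 0.05). The dim Rpl39 ranged from 7.01 to 7.22 after oxaliplatin and from 7.11 to 7.53 after D5W, a difference of -0.13 ± 0.042 (adjusted p = 0.0236), and Rpl4 differed by -0.070 ± 0.026 (adjusted p = 0.0439). With each array centred on the tested genes 12 were lower, and leaving out 1 array at a time gave 0 to 3 called genes. All 6 erythroid markers were lower in heart at 24 h, and their part in the result was not tested.

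Rpl5 and Rpl11, whose proteins bind Mdm2, were not called in the tests of oxaliplatin against D5W within a tissue, which read mRNA. Rpl5 differed by -0.043, 0.012 and -0.040 in heart, 0.011, 0.046 and -0.047 in kidney and -0.019, 0.057 and -0.050 in liver. Rpl11 differed by -0.022, -0.0017 and -0.048 in heart, 0.029, -0.0019 and 0.064 in kidney and -0.0083, 0.036 and -0.035 in liver. Mdm2 itself was higher in kidney at each time, by 0.46, 0.75 and 0.57, in liver at 6 h by 0.76, and in heart at 6 and 24 h by 0.19 and 0.18. Rplp0, often used as a reference gene, differed by -0.026, 0.037 and 0.048 in heart and -0.026, 0.094 and -0.0036 in liver, none called. Rps6 differed by -0.031, 0.022 and -0.040 in heart and -0.017, 0.075 and 0.030 in liver, none called.

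Lists of related genes were read in the same comparisons. Of 29 tested ribosome biogenesis factors, which make and process rRNA, 24 were higher and 0 lower in kidney at 6 h (median 0.28), where 12.7% of all genes were higher and 7.88% lower, led by Noc2l at 0.41 and Nop56 at 0.40. In liver at 6 h 16 were higher and 0 lower (median 0.22), led by Rrs1 at 0.49 and Bop1 at 0.47. There 6.72% of all genes were higher and 426 of 11619 lower. The ribosomal protein genes had medians of 0.0094 and 0.052 in the same comparisons. Of 73 mitochondrial ribosomal protein genes 29 were higher in heart at 24 h (median 0.086), where 14.5% of all genes were higher, and in kidney at 6 h 13 were higher and 5 lower. A list of 14 genes with TOP mRNAs held translation factors and Nap1l1, which is not one. Of these, 3 were higher in kidney at 6 h, with Nap1l1 at 0.10 and Eef1b2 at 0.090. In heart at 24 h 4 of the 14 were higher, with Eef1d and Eif4b at 0.18 each. Of 11 genes that control TOP mRNAs, Eif4e at 0.16 and Larp1 at 0.13 were higher and Rptor at -0.43 lower in kidney at 6 h. The paralog Rpl7l1 was higher in kidney at 1 h by 0.12 (adjusted p = 0.0354) and at 6 h by 0.23 (adjusted p = 2.01e-06), while the p53 target Rps27l, at 0.12 in kidney and 0.15 in liver at 6 h, was not called.

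**Figure D3:**
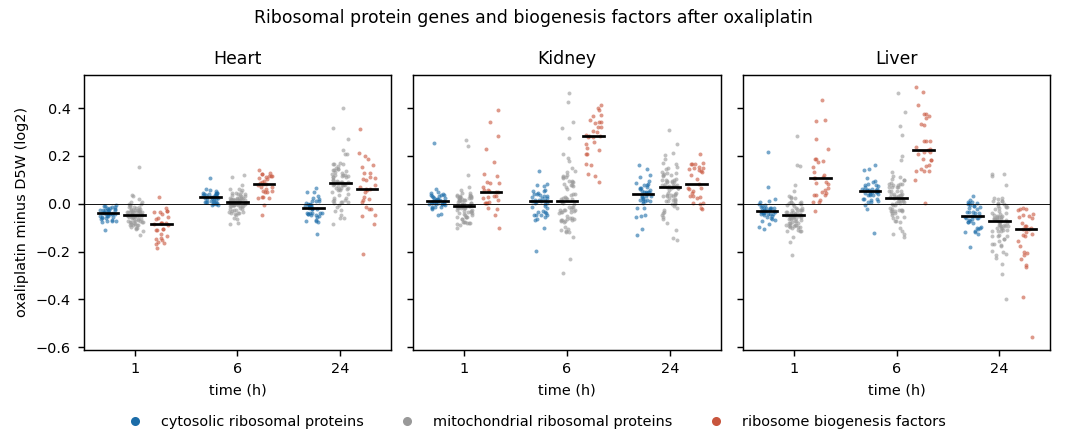
Oxaliplatin minus D5W (log2) for each cytosolic ribosomal protein gene (blue), mitochondrial ribosomal protein gene (grey) and ribosome biogenesis factor (red) by tissue and time, with a bar at each list's median. In kidney at 6 h the medians were 0.0094 for the cytosolic genes and 0.28 for the biogenesis factors.

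Each oral drug was set against its own vehicle after D5W alone, with 4 rats per group. In kidney 0 genes passed for sunitinib by limma at 1 h (0.0244% of all genes), 6 h (0%) and 24 h (0%), with 4, 1 and 0 at an unadjusted p under 0.05. For sorafenib in kidney 0 passed at 1 h (0%), 6 h (0.0731%) and 24 h (0.203%), with 1, 0 and 5 at an unadjusted p under 0.05. In liver 0 passed for sunitinib at 1 h (0%) and 6 h (0%), with 1 and 0 unadjusted, and 0 for sorafenib at 1 h (0.0689%) and 6 h (0.0344%), with 1 each unadjusted. At 24 h 1 gene was higher in liver after sunitinib, against 0.559% of all genes: Rpl34, at 13.28 to 13.45 against 13.13 to 13.28, every sunitinib rat above every water rat, a difference of 0.18 ± 0.046 (adjusted p = 0.0401). It kept the call in 8 of 17 alternatives, and leaving out 1 array at a time gave 0 to 2 called genes.

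In liver at 24 h, sorafenib was followed by lower values of 25 of 40 genes (62.5%), against 48.2% of all genes tested, in 3 rats against 4. The median of the ribosomal protein genes was -0.16 and that of all genes -0.24, and with each array centred on the tested genes the direction turned, to a median of 0.12 with 19 genes higher and 0 lower. A further quantile normalization left 8 called, 7 lower and 1 higher. Calls over all genes were not counted with this normalization or with the centring. Rpl35a, of the large subunit, ranged from 12.04 to 12.10 after sorafenib and from 12.47 to 12.52 after F68, a difference of -0.42 ± 0.067 (adjusted p = 1.56e-07). Rps15 ranged from 12.71 to 12.77 and from 13.02 to 13.22, a difference of -0.35, and Rps3, which also acts in DNA repair, from 12.83 to 12.99 and from 13.17 to 13.30, a difference of -0.33. In each of these genes the groups do not overlap, which was not counted over all genes. All 11 macrophage markers, 4 of 5 erythroid markers, 6 of 14 proliferation genes and 2 of 3 neutrophil markers were lower too, and of 10 lymphocyte markers 4 were higher and 2 lower. The actin 3′ minus 5′ difference, which is larger in degraded RNA, was 0.64 to 0.76 after sorafenib and 0.77 to 0.85 after F68, with summed macrophage signals of 10.6 to 13.0 against 17.6 to 27.9, and their part in the result was not tested.

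In heart the drug groups also differed from their vehicles in the same 3′ minus 5′ log2 difference of the beta-actin control probe sets. This is a reading of RNA quality, and the Gapdh control probe sets give another. At 1 h 6 genes were lower after sunitinib, against 5.07% of all genes, led by Rpl3 at 12.16 to 12.35 against 12.46 to 12.64, a difference of -0.28 ± 0.082 (adjusted p = 0.0175), Rps28 at -0.20 and Rpl35 at -0.14. At 6 h 0 passed (0% of all genes; 0 at an unadjusted p under 0.05). At 24 h 2 were higher, against 19%, Rpl6 at 0.16 and Rplp0 at 0.091, and 5 lower, against 6.42%, led by Rpl39 at -0.20, Rpl13a at -0.15 and Rpl35a at -0.13. The actin difference was 0.28 to 0.38 against 0.46 to 0.53 at 1 h and 0.37 to 0.57 against 0.71 to 0.81 at 24 h, and with it as a covariate 0 genes were called at either time. Calls over all genes were not counted with the covariate. At 6 h, where 0 genes passed, the actin difference was 0.35 to 0.50 after sunitinib against 0.29 to 0.33. The Gapdh difference was 0.11 to 0.15 against 0.20 to 0.23 at 1 h. At 24 h it overlapped, at 0.14 to 0.18 against 0.16 to 0.23. At 1 h 5 of 8 lymphocyte markers and 3 of 11 macrophage markers were lower as well, and their part in the result was not tested.

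Sorafenib in heart at 1 h was followed by lower values of 4 genes, against 9.63% of all genes: Rpl13a at -0.21, Rpl21 at -0.19 and Rpl4 at -0.16 led. With each array centred on the tested genes 1 gene was called, higher, and the median turned from -0.054 to 0.023. With array medians set equal 11 were called. The actin difference was 0.27 to 0.28 against 0.29 to 0.42, and with it as a covariate 2 were called, as without D5W then F68 replicate 2 or 3 or D5W then sorafenib replicate 2. The Gapdh difference overlapped, at 0.13 to 0.17 against 0.14 to 0.23. At 6 h 11 were higher, against 18.2%, led by Rpl13a at 0.18, Rpl35a at 0.18 and Rpl39 at 0.15, and 4 lower, against 23.7%, led by Rps13 at -0.29, Rps28 at -0.14 and Rplp0 at -0.098. The actin difference was 0.49 to 0.77 after sorafenib and 0.20 to 0.33 after F68, and with it as a covariate 3 genes were called, all lower. The Gapdh difference overlapped here too, at 0.12 to 0.26 against 0.11 to 0.22. Of 11 macrophage markers 7 and of 8 lymphocyte markers 2 were lower at 6 h, and their part in the result was not tested. At 24 h 0 passed by limma (7.05% of all genes; 1 at an unadjusted p under 0.05). The actin difference did not overlap there either, at 0.13 to 0.37 after sorafenib and 0.40 to 0.50 after F68.

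The change of the oxaliplatin effect with the oral drug was tested over the 3 times together. With sunitinib 4 heart genes were called (17.2% of all genes). Rps28 changed by 0.30, -0.046 and -0.15 at 1, 6 and 24 h, Rpl3 by 0.39, -0.16 and 0.0033, Rpl6 by 0.044, -0.12 and -0.22 and Rpl18 by 0.11, -0.029 and -0.16. Other settings gave 2 to 7 genes, and without the heart array at 1 h of oxaliplatin then water replicate 4 there were 14. The count was 0 by limma in kidney (0%) and liver (0%), with 0 at an unadjusted p under 0.05 in both. The kidney test holds the group at 1 h with the low BioB value. Over all genes the median change in kidney at 1 h was 0.11. Leaving out 1 array at a time also gave 0 in kidney. A count of 0 does not show that there was no change. With sorafenib 6 were called in heart (18.5% of all genes), Rpl4, Rps23 and Rpl39 among them, 0 in kidney (0.0162%; 3 at an unadjusted p under 0.05) and 2 in liver (22.2%). In liver Rpl35a changed by 0.16, 0.054 and 0.31 and Rpl18 by 0.071, -0.098 and 0.25. Other settings gave 1 to 9 genes in heart and 0 to 5 in liver, and leaving out 1 array at a time gave 2 to 8 and 1 to 11, the last without the array at 24 h of oxaliplatin then sorafenib replicate 2.

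F68 was compared with water, 8 rats against 8 at each time, and here vehicle and dosing day cannot be told apart. Over the 3 times 39 of 40 genes were called in heart, against 33.2% of all genes, 2 of 41 in kidney (24.4%), Rpsa with a mean of -0.079 and Rps15a with -0.070 (12 with arrays centred on the tested genes), and 0 of 40 in liver by limma (6.7%; 1 at an unadjusted p under 0.05). In heart 25 genes were lower in F68 rats at 1 h (6.51% of all genes), 12 at 6 h (10.3%) and 25 at 24 h (3.76%). At each time 0 were higher, where 728, 331 and 989 of 11317 genes were higher over all. The counts of lower genes fell to 5, 3 and 3 with the actin covariate described above and were 17, 1 and 35 with arrays centred on the tested genes, all lower. Calls over all genes were not counted in these fits. A general loss or gain of calls therefore cannot be told from one particular to these genes. Leaving out 1 array at a time gave 14 to 28, 3 to 17 and 19 to 30, the 14 without oxaliplatin then water replicate 4, and at 6 h 9 different arrays each moved the count to between 3 and 7. Rpl3 ranged from 12.00 to 12.29 with F68 and from 12.09 to 12.64 with water at 1 h, a difference of -0.28 ± 0.058 (adjusted p = 0.000835). It differed by -0.22 ± 0.058 at 6 h and -0.17 ± 0.058 at 24 h. Rps28 followed at -0.18 and -0.13 at 1 and 6 h, Rpl22 at -0.13 at 1 h and Rpsa at -0.11 at 6 h, and at 24 h Rpl35a stood at -0.16 and Rpl13a at -0.14. The dim Rps13 was the gene not called. The direction was the same within both infusions: in each of the 6 sets of a time and an infusion 36 to 40 of the 40 genes were lower, with medians from -0.10 to -0.050. Signs of genes on the same arrays are not independent, and signs over all genes were not counted in these sets. The actin difference was lower in F68 rats too, at 0.27 to 0.42 against 0.38 to 0.53 at 1 h, and with it as a covariate 20 genes were called over the 3 times, all lower. Of 14 proliferation genes 11, 13 and 7 were lower at 1, 6 and 24 h. Of 11 macrophage markers 4 were lower at 1 h and 1 at 6 h, and of 8 lymphocyte markers 4 at 1 h, and their part in the result was not tested.

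**Figure D4:**
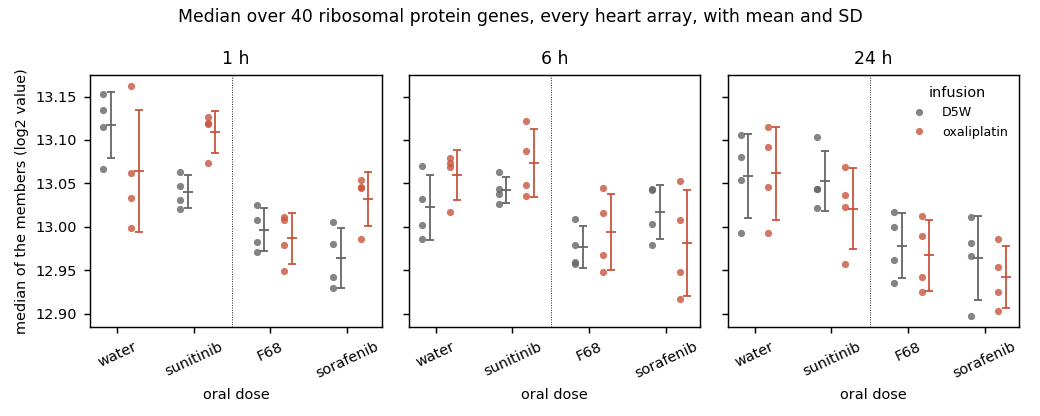
Median over the 40 tested ribosomal protein genes (log2 value) on every heart array by oral dose and infusion at 1, 6 and 24 h, with the mean and SD of each group of 4 rats, the dotted line parting the dosing days. The F68 rats given D5W or oxaliplatin lie lower than the water rats on average, with F tests calling 39 of 40 genes.

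From 1 to 6 h in vehicle rats, 8 against 8, 15 heart genes were lower, against 27.1% of all genes, led by Rpl23a at -0.16, Rpl13a at -0.14 and Rpl21 at -0.14. Centred on the tested genes 1 was higher and 1 lower, and the median turned from -0.053 to 0.012. The actin difference was 0.20 to 0.33 at 6 h and 0.29 to 0.53 at 1 h, and 6 genes were called with it as a covariate, 28 with array medians set equal and 9 without D5W then F68 replicate 3 of 1 h. In kidney 0 passed by limma (1.98% of all genes; 2 at an unadjusted p under 0.05), and in liver 1 was lower, against 3.45%: Rpl21 at -0.21 ± 0.051 (adjusted p = 0.00374).

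Tissue levels were described in vehicle rats at 1 and 6 h, 16 arrays per tissue, each gene as its log2 value minus the array's median over the ribosomal protein genes. The 40 genes tested in all tissues differed little in relative level: the median range over tissues was 0.28, 36 stayed under 0.5 and 0 were over 1. Rpl3 was the lowest in heart, at -0.68 against the other tissues, with log2 values of 12.0 to 12.6 in heart and medians of 13.5 in kidney and 13.1 in liver. Its paralog Rpl3l, a protein of striated muscle, stood at 11.9 to 12.3 in heart and at medians of 4.61 in kidney and 4.70 in liver. Rpl41 at -0.53 and Rps13 at -0.31 were also low in heart, and Rps15a at 0.44 and Rpl35a at 0.43 were high, as was Rps24 at 0.44, which turned to -0.011 with the mean of its probe sets. In kidney Rpl3 at 0.43, Rpl14 at 0.41 and Rpl7 at 0.24 were highest, the last turning to -0.034 against the array's median over all probe sets, and Rplp0 at -0.31, Rpl23a at -0.31 and Rps15a at -0.30 lowest. In liver Rpl14 at -0.62, Rpl35a at -0.54 and Rpl19 at -0.30 were lowest, the last turning to 0.0066 against the array's median, and Rpl41 at 0.53, Rps23 at 0.35 and Rpl4 at 0.33 highest. The size of these values rests on the reference: of 36 values under another setting 25 moved by more than the spread over arrays and 3 turned. Against the array's median over all probe sets Rpl3 and Rpl14 in kidney were 0.15 each, Rplp0 was -0.58 and Rpl23a -0.61, and in liver Rpl14 was -0.34, Rpl35a -0.26 and Rpl41 0.81. In heart Rpl3 was -0.70 and Rpl41 -0.54 on that scale.

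**Figure D5:**
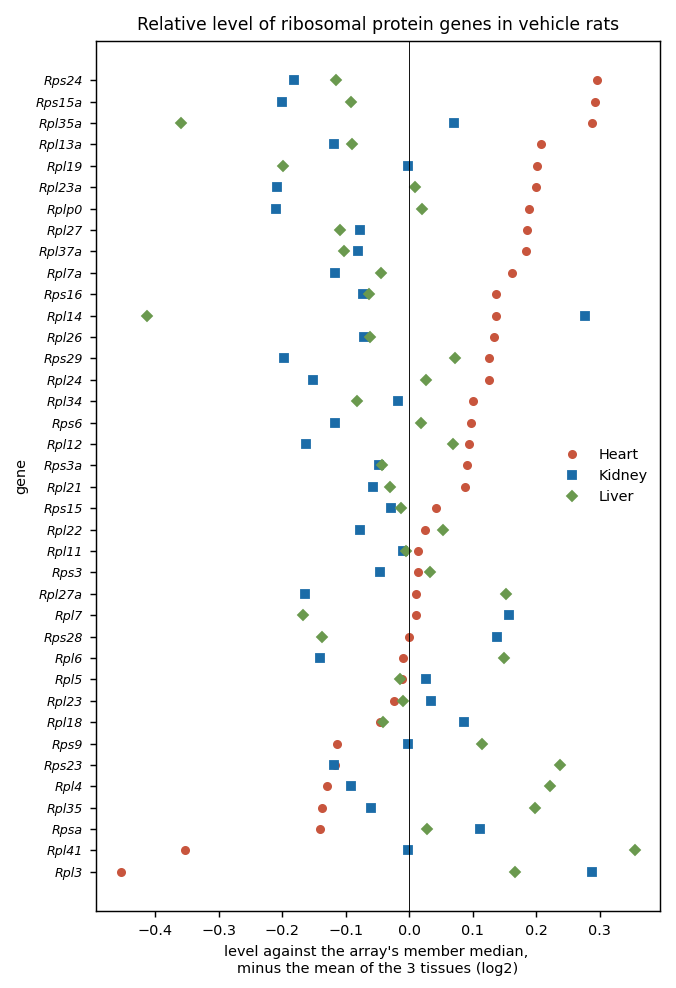
Relative level of each bright ribosomal protein gene in heart, kidney and liver of vehicle rats (log2 against the array's median over these genes, minus the mean of the 3 tissues), medians of 16 arrays per tissue. Rpl3 and Rpl41 lie lowest in heart, and Rpl14 and Rpl35a lowest in liver.

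Within groups the genes varied together. The correlation over arrays between a gene's deviation from its group mean and the median deviation of the others had a median of 0.73 in heart (96 arrays), 0.70 in kidney (95) and 0.78 in liver (95), against 0.63, 0.64 and 0.60 among mitochondrial ribosomal protein genes. The values share the array, and so its labelling and scaling. The kidney arrays include the one with the low BioB value. The most coherent were Rpl27a and Rpl35 at 0.88 and Rpl23 at 0.84 in heart, Rpl19 at 0.84, Rps3 at 0.83 and Rps24 at 0.82 in kidney, and Rpl23a at 0.90 and Rps24 and Rpl27a at 0.88 in liver. The least were Rpl6 at 0.23, Rps13 at 0.29 and Rpl39 at 0.45 in heart, Rpl35 at 0.026, Rps13 and Rpl28 in kidney, and Rps13 at 0.0075, Rpl39 at 0.37 and Rpl6 at 0.42 in liver.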

How the data were processed

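RNA of heart, kidney and liver was hybridised to Affymetrix whole-genome rat arrays, 1 array per rat and tissue. The authors deposited 1 log2 value per probe set and array, made with robust multi-array averaging (RMA, per the submitters' processing notes; version not given in the sources used here). The method corrects background, aims to put arrays on a common distribution and combines the probes of a probe set. The paper reports another distribution on the liver arrays of D5W then sorafenib at 24 h. Joint normalization of the tissues was not stated. Arrays carry no read depth, and their number limits the precision. The groups came from the sample titles, and replicates are separate rats.

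Probe sets with 1 gene symbol were kept, and the brightest one by its mean in a tissue stood for the gene. Probe sets with several symbols were not named. Tested were genes that passed 6 log2 on 4 or more arrays of a tissue. A total of 2 arrays was left out, 1 of the liver (replicate 1) and 1 of the kidney (replicate 4), both labelled 24 h D5W then sorafenib. One mean per group was fitted in each tissue with limma 3.58.1 in R 4.3.3, and p-values were Benjamini-Hochberg adjusted over all genes tested and called under 0.05. Differences between tissues came from 1 fit over all 72 groups. That fit treated the arrays as independent, although the tissues came from the same rats. Values after ± are limma standard errors. The fit was tested on simulated data.

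The members, the lists and the tests were chosen with earlier results of these data known. Named were up to 5 called members in each direction for oxaliplatin and up to 3 for the other comparisons, the extremes of the descriptions, and Rpl3, Rpl5, Rpl11, Rps6 and the stalk gene Rplp0 whatever they did. From the other lists, up to 2 called genes in each direction were named. Alternatives were other scalings and normalizations, the mean of a gene's probe sets, no filter, all arrays, the groups of 1 time, a trended and robust variance model, a covariate for RNA quality, 1 oral dose at a time, plain probe sets, and each array left out in turn. Centring each array on the tested genes was chosen after seeing the data.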

Additional observations from a re-analysis of the deposited data

Results flagged for a closer look

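On 7 arrays 1 rat stood apart from the other 3 of its group, among 140 groups tested (70 groups of 4 rats, read for the median of the ribosomal protein genes and for Rpl3). Chance marks about 1 in 20 groups. The median of the genes was low on the heart arrays at 1 h after oxaliplatin then sorafenib replicate 4 (12.985, others 13.044 to 13.054), at 1 h after oxaliplatin then sunitinib replicate 1 (13.074, others 13.118 to 13.126) and at 6 h after oxaliplatin then water replicate 3 (13.017, others 13.069 to 13.079). In liver it was low at 1 h after oxaliplatin then sunitinib replicate 4 (13.232, others 13.274 to 13.28) and after oxaliplatin then water replicate 3 (13.141, others 13.266 to 13.284). Rpl3 was high in heart at 1 h after oxaliplatin then sorafenib replicate 3 (12.297, others 12.198 to 12.213) and in kidney at 1 h after D5W then sunitinib replicate 1 (13.718, others 13.553 to 13.578).

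The oxaliplatin effect differed between times, by a test of the difference itself with limma. From 6 to 24 h it was lower for Rpl39 (-0.2349) and Rps23 (-0.1261) in heart, higher for Rps28 (0.1585), Rpl27a (0.1154) and Rpl7a (0.1143) in kidney, and lower for Rpl4 (-0.2623), Rpl13a (-0.2595) and Rpl14 (-0.1879) in liver. From 1 to 6 h it was lower for Rps13 in kidney (-0.2515). In heart 2 of 40 genes were called from 6 to 24 h, against 862 of 11317 over all genes. In kidney 1 of 41 was called from 1 to 6 h, against 984 of 12310.

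It also differed between tissues. At 6 h it was lower in kidney than in liver for Rpl18 (-0.1302) and Rpl7a (-0.1281), and lower in kidney than in heart for Rpl3 (-0.2553) and Rpl39 (-0.1773). At 24 h it was higher in kidney than in liver for Rpsa (0.1725), Rpl27a (0.1686) and Rpl4 (0.1637), higher in kidney than in heart for Rpl39 (0.1813), Rps6 (0.123) and Rpl11 (0.1123), and lower in liver than in heart for Rps3 (-0.1464). Calls in either direction are given for 41 ribosomal protein genes and, in brackets, for all 12836 genes. At 6 h they were 2 (496) for kidney against liver and 2 (539) for kidney against heart. At 24 h they were 9 (949) and 4 (503), with 1 (1772) for liver against heart. The oxaliplatin effect changed with sunitinib for 4 genes (10% of those tested, against 17.2% of all genes) and with sorafenib for 6 in heart (15%, against 18.5%), and with sorafenib for 2 in liver (5%, against 22.2%).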

How the results depend on the processing

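Rpl3 in kidney at 6 h after oxaliplatin was called under each of the 30 alternatives tried, with values from -0.15 to -0.24. No paired analysis was possible because the labels give no replicate numbers, and the numbers used here only follow accession order. The tests over the 3 times and the comparison of 6 with 1 h have no value in a fit of 1 time, and no heart array was left out, so all arrays as labelled changed nothing there. For each change below the cause was not tested. Arrays carry no depth, and dim genes near the floor limit what Rpl28, Rpl30, Rpl39 and Rps13 can show.

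Beside the counts and medians of the report, the alternatives gave these. Calls over all genes were not counted under them. With the beta-actin covariate, heart counts were 20 for F68 over the 3 times and 5, 3 and 3 for F68 at 1, 6 and 24 h, 1 and 2 for the change of the oxaliplatin effect with sorafenib and sunitinib, 0 for oxaliplatin at 24 h, 2 and 3 for sorafenib at 1 and 6 h, 0 for sunitinib at 1 and 24 h and 6 for 6 against 1 h, and liver counts at 24 h were 1 for oxaliplatin and 0 for sunitinib. Centred on the tested genes, heart counts were 12 for oxaliplatin at 24 h (median -0.063), 1 and 2 for sorafenib at 1 and 24 h (medians 0.023 and 0.054), 2 and 19 for sunitinib at 1 and 24 h (median -0.099 at 24 h) 1 for F68 at 6 h and 2 for 6 against 1 h (median 0.012). The same centring gave 12 for F68 in kidney over the 3 times and 9 and 1 at 1 and 24 h, and in liver 0 for oxaliplatin and sunitinib at 24 h, 6 for 6 against 1 h and a median of 0.12 for sorafenib at 24 h. With array medians set equal, heart counts were 7 for the change with sunitinib, 1 for oxaliplatin at 24 h, 11 for sorafenib at 1 h, 4 for sunitinib at 24 h and 28 for 6 against 1 h. The kidney counts were 4 for oxaliplatin at 24 h and 0 for F68 at 6 h, and in liver the counts were 5 for the change with sorafenib and 2 for 6 against 1 h, with a median of -0.22 for sorafenib at 24 h. With a further quantile normalization, heart counts were 1 for the change with sorafenib, 1 for sorafenib at 1 h (median -0.012), 14 for sunitinib at 1 h, 7 for F68 at 6 h and 5 for 6 against 1 h. Kidney counts were 5 for F68 over the 3 times, 3 and 2 for F68 at 1 and 6 h and 4 for oxaliplatin at 6 h, and liver counts were 0 for the change with sorafenib, 1 and 2 for oxaliplatin and sunitinib at 24 h and 8 for sorafenib at 24 h (median -0.056). The trended and robust variance model gave 7 for the change with sunitinib in heart and 5 for F68 in kidney. The mean of a gene's probe sets gave 7 for the change with sunitinib in heart, 4 for F68 in kidney, 0 for F68 in kidney at 6 h and 1 for F68 in liver over the 3 times and at 24 h, and turned the level of Rps24 in heart to -0.011. Against the array's median over all probe sets the level of Rpl7 in kidney turned to -0.034 and that of Rpl19 in liver to 0.0066. Without a filter the counts at 24 h were 1 for oxaliplatin in heart and in liver and 4 for sunitinib in heart, and those for F68 were 7 in heart at 6 h and 0 in kidney at 1 and 6 h. Plain probe sets gave 1 for oxaliplatin in liver at 24 h. In a fit of 1 time the counts were 1 for oxaliplatin at 24 h, 9 for sorafenib at 6 h, 5 for F68 at 6 h and 4 for sunitinib at 24 h in heart, 0, 0 and 1 for F68 in kidney at 1, 6 and 24 h, and in liver 1 and 0 for oxaliplatin at 1 and 24 h and 0 for sunitinib at 24 h. All arrays as labelled gave 7 for sorafenib at 24 h and 0 for F68 at 1 and 6 h in kidney, 1 for the change with sorafenib, 1 for oxaliplatin and 0 for sunitinib at 24 h in liver, and a median of -0.11 for sorafenib there.

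For oxaliplatin under 1 oral dose, F68 alone gave 0 in heart at 24 h, 0, 6 and 1 in kidney at 1, 6 and 24 h and 0 in liver at 6 h, with Rpl4 in heart at 24 h turned to 0.0050. Over all genes, 26 of 11317 were called in heart, 292, 1096 and 177 of 12310 in kidney and 176 of 11619 in liver. Sorafenib alone gave 0 in heart at 24 h and 11 at 6 h, 1 and 0 in kidney at 6 and 24 h, and 0 and 7 in liver at 6 and 24 h. The calls over all genes were 5 and 3769 of 11317, 805 and 43 of 12310, and 33 and 4325 of 11619. With sorafenib the medians of the ribosomal protein genes were 0.068 and -0.050 in heart at 1 and 6 h, 0.065 in kidney at 1 h and 0.059 and 0.00080 in liver at 1 and 24 h, and Rps13 in kidney at 1 h turned to -0.066 and Rps15 in liver at 24 h to 0.024. Sunitinib alone gave 3 and 1 in heart at 1 and 24 h, 2 and 1 in kidney at 1 and 24 h and 0 in liver at 24 h. The kidney group at 1 h holds the array with the low BioB value. Of all genes tested, 957 and 117 of 11317, 1613 and 191 of 12310 and 120 of 11619 were called. With sunitinib the medians of the ribosomal protein genes were 0.075 in heart at 1 h, 0.060 in kidney at 6 h and 0.033 in liver at 1 h, and Rpl39 in heart at 24 h turned to 0.018. Water alone gave 1 in kidney at 6 h and 0 in liver at 24 h, where 1380 of 12310 and 141 of 11619 genes were called.

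Leaving out 1 array at a time, heart counts ranged from 9 to 16 for 6 against 1 h, 2 to 8 and 3 to 14 for the change with sorafenib and sunitinib, 0 to 1 and 0 to 3 for oxaliplatin at 1 and 24 h, 2 to 4 for sorafenib at 1 h, 1 to 9 and 2 to 5 for sunitinib at 1 and 24 h, and 14 to 28 and 3 to 17 for F68 at 1 and 6 h. They ranged from 2 to 5 for F68 over the 3 times in kidney, 0 to 2 and 0 to 3 at 1 and 6 h, and in liver from 1 to 2 for 6 against 1 h, 1 to 11 for the change with sorafenib, 0 to 3 for oxaliplatin and 0 to 2 for sunitinib at 24 h.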
